A study of Mus musculus with 8 samples.

Results

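The carboxypeptidase M gene Cpm and 6 other metallocarboxypeptidase genes, Cpe, Cpd, Cpz, Cpxm1, Cpxm2 and Cpq, were followed through 4 groups of mouse 3T3-L1 adipocytes. These 7 genes were taken from the 43629 genes of the deposited count table. Cpm was chosen by its measured fold change between A66-treated and untreated cells, and the other 6 were added as genes of the same class of enzyme. The A66 against untreated values are therefore given as a description, without a test.

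3T3-L1 is a clonal line of mouse pre-adipocytes that turns into fat-storing adipocytes in culture. All cultures were differentiated with insulin, dexamethasone, isobutylmethylxanthine and rosiglitazone, and each group was then treated, or left untreated, from day 8 for 24 h. The groups were untreated cells, cells given A66 at 2 μM, cells given palmitate at 0.5 mM bound to bovine serum albumin, and cells given both agents at these doses, with 2 libraries in each. The labels number these as replicates without saying that they were separate cultures. The methods of the study name 2 biological repeats for the adipocytes given A66 or DMSO. The p-values measure only the spread between the 2 libraries of a group. A66 inhibits p110α, a catalytic subunit of PI3K downstream of the insulin receptor, and palmitate is a saturated fatty acid. The methods of the study give a lower dose of A66 and DMSO-treated controls, whereas the sample labels give 2 μM and name the controls untreated. None of the groups used here is labelled as given albumin alone, so palmitate and its carrier cannot be told apart. Which libraries received A66 is known here from the labels alone and was not settled from the counts. Every A66 direction below is that of the labels, and this direction is in doubt. If the labels of libraries with and without A66 were exchanged, each A66 difference would turn its sign, and the 2 palmitate comparisons, without and with A66, would change places with all their values and calls.

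Metallocarboxypeptidases hold a zinc ion in the active site and remove the last amino acid of a peptide or protein. Cpm, Cpe, Cpd, Cpz, Cpxm1 and Cpxm2 belong to one subfamily, whose active members cut off a terminal arginine or lysine. Cpm is anchored to the outside of the plasma membrane by a lipid and trims kinins, complement anaphylatoxins and epidermal growth factor, and it is also known as a marker of maturing macrophages. Cpe works in secretory granules, where it finishes peptide hormones, and Cpd spans the membrane of the trans-Golgi network with several carboxypeptidase domains. Cpz is secreted and carries a frizzled-like domain that can bind Wnt proteins. Cpxm1 and Cpxm2 carry a discoidin domain and lack residues needed for catalysis. Cpq is a secreted and lysosomal dipeptidase of a different metallopeptidase family.

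On GRCm38 (GENCODE release M21), Cpm (ENSMUSG00000020183) lies on the forward strand of chromosome 10 from 117629500 to 117687352. The 250 bases before its annotated start, chr10:117629250-117629499 of GRCm38.p6 on the forward strand, are shown here because Cpm is the gene the group is built around. Capitals mark the letters GGGCGG, the core of sites for Sp1-type factors, read on either strand.
Cpm promoter: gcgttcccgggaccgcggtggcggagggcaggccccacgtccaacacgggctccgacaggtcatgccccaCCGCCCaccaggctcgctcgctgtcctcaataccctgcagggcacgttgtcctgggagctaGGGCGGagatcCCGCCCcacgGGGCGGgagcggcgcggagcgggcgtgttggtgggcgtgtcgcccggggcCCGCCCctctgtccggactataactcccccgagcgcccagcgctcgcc
This RefSeq window holds GGGCGG at 5 places, and 32.7% of the 32851 windows of that length in the table hold it at least once. Its GC content was 74.4%, where the median window had 52.4%. The letters TGTTTAC of FOXO factors, TCACNCCAC of SREBP and AGGTCA of PPAR dimers, repeated in one direction with a single base between, were searched on both strands and were not in this window. Of all windows, 3.17% held the first, 1.05% the second and 0.0335% the third. Windows were found for 5 of the 7 genes, and those of Cpd and Cpz held GGGCGG at 1 place each and those of Cpxm1 and Cpxm2 at 3 places each. These matches describe letters and are not binding sites.

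The other genes lie apart from Cpm and from one another. Cpe (ENSMUSG00000037852) is on chromosome 8 from 64592542 to 64693054, Cpd (ENSMUSG00000020841) on chromosome 11 from 76778424 to 76847018, and Cpq (ENSMUSG00000039007) on chromosome 15 from 33083129 to 33594552. Cpz (ENSMUSG00000036596) is on chromosome 5 from 35502218 to 35525698, Cpxm1 (ENSMUSG00000027408) on chromosome 2 from 130390775 to 130397574, and Cpxm2 (ENSMUSG00000030862) on chromosome 7 from 132032687 to 132154739. Antisense genes share 3.18% of the exonic bases of Cpq and 7.59% of those of Cpxm2, and none of the exonic bases of the other 5 genes lies in an exon of another gene. Whether the counting used strand is not given in the sources used here.

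The libraries held between 42247091 and 57529803 counts, at which 3 counts, taken as the floor of detection, correspond to between 0.0521 and 0.0710 CPM (the usual library-scaled count, with TMM factors for the values of genes). This floor covers counting error only. The cells carried the mRNA of adipocytes, with Fabp4, the fatty acid binding protein, at 2829 CPM and Adipoq, adiponectin, at 2303 CPM in untreated cells. Of the 7 macrophage markers listed, Adgre1 was at 0 in every library and Ptprc did not exceed 0.0193 CPM. The summed macrophage list lay between 13.3 and 18.9 CPM over the 8 libraries, most of it from Cd14, Cd68 and Lyz2. Of the 7 pre-adipocyte and fibroblast markers, Dlk1 was at 0 in every library, whereas Col1a1 (628 CPM), Pdgfrb (207 CPM) and Pdgfra (92.4 CPM) were well detected in untreated cells, and the summed list lay between 919 and 1133 CPM.

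The 7 genes fell into 3 tiers of mRNA level. Per kilobase of annotated exon, Cpe and Cpd were the most abundant, Cpq was next and Cpm followed, while Cpz, Cpxm1 and Cpxm2 were barely detected. In CPM per kilobase (RPKM, computed here), untreated cells held 39.3 ± 0.229 of Cpe, 32.2 ± 0.508 of Cpd, 7.35 ± 0.0554 of Cpq and 2.61 ± 0.138 of Cpm (SD, n = 2 each). Cpz had 0.104 ± 0.0280 and Cpxm1 0.0913 ± 0.0215 in the same cells (SD, n = 2 each), which overlapped. The order Cpe, Cpd, Cpq, Cpm held in every library, and also with the longest transcript as the length of each gene in untreated cells. Between groups, the highest mean was 2.61 times the lowest for Cpm, but 1.11 times for Cpe, 1.06 times for Cpd and 1.16 times for Cpq. It was 2.52 times for Cpz and 2.28 times for Cpxm1, which had few counts.

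**Figure D1:**
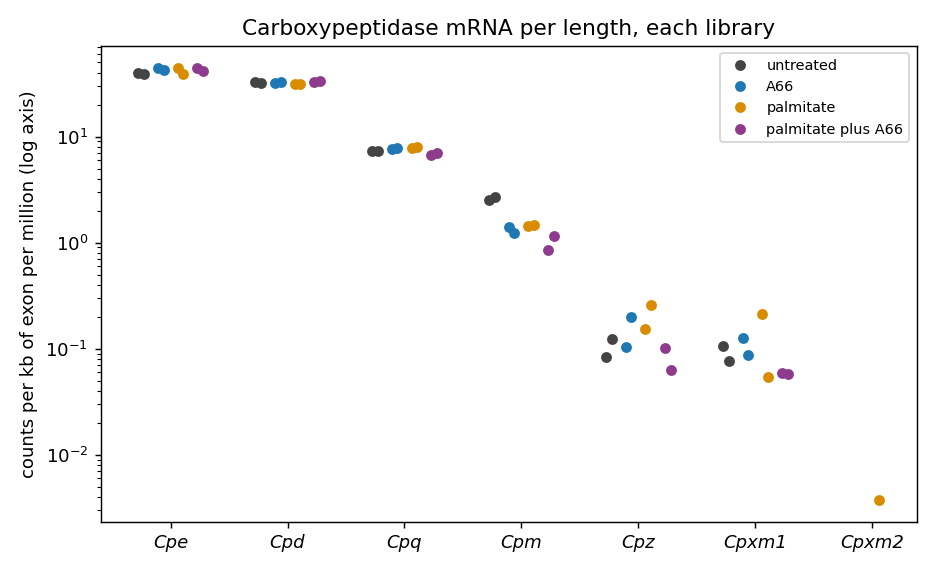
Level of each carboxypeptidase mRNA in CPM per kilobase of exon (log axis) in each of the 8 libraries, 2 points per group. Cpe, Cpd and Cpq stay within narrow bands and Cpm spreads from 0.850 to 2.71, while zero values, 7 of the 8 for Cpxm2, cannot be drawn on this axis.

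By the labels, Cpm mRNA was highest in the libraries named untreated, lower in those of either agent, and lowest in those of both. It stood at 15.0 and 16.1 CPM in the untreated libraries, at 8.32 and 7.42 CPM after A66, at 8.52 and 8.72 CPM after palmitate, and at 5.07 and 6.86 CPM after both. Each of these groups was separate from the others in Cpm, in that no library of one lay inside the range of another. Within single comparisons, the 2 groups did not overlap for 40.5% to 46.6% of all genes tested. The share of genes separate in all 4 groups at once was not counted, and the untreated and A66 libraries took part in choosing Cpm. With exchanged labels the order of the means below would instead be A66 (15.6 CPM), both agents (8.62 CPM), untreated (7.87 CPM) and palmitate (5.97 CPM), so that palmitate alone would be lowest. The group means were 15.6 ± 0.826, 7.87 ± 0.641, 8.62 ± 0.144 and 5.97 ± 1.27 CPM (SD, n = 2 each). Palmitate and A66 lay close together in this order, 0.754 CPM apart, which is little more than the SD of the A66 libraries. The raw counts behind these values ran from 246 to 873 per library. In such bulk RNA, fewer cells that carry Cpm and less Cpm per cell cannot be told apart.

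**Figure D2:**
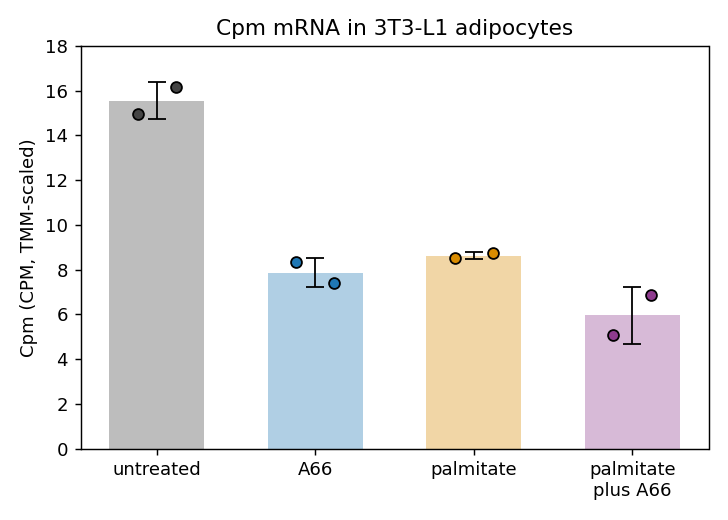
Cpm mRNA in CPM by group, with points for the 2 libraries, bars for the group mean and error bars for the SD. The untreated libraries lie at 14.97 and 16.14 CPM, and every treated library lies below 8.73 CPM.

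The response to A66 was measured in cells without and with palmitate. Without palmitate, in the comparison through which Cpm was picked, its log2 fold change was -0.98 (standard error 0.097), that is 0.507 of the level in libraries labelled untreated, and 77 of the 14158 genes tested had a lower value. With exchanged labels this would be 0.98, or 1.97 times the untreated level, with 77 genes having a higher value. In this comparison 1.84% of genes passed an adjusted p of 0.05, a share from which nothing is read here for the 7 genes. The summed adipocyte list was 8929 to 9209.7 CPM in untreated and 9218 to 9759 CPM in A66 libraries, and the summed macrophage list 13.3 to 14.1 CPM and 14.2 to 15.9 CPM, so that neither overlapped. The summed fibroblast list was 962 to 991 CPM and 946 to 959 CPM. Of these markers 0 passed in edgeR's test and DESeq2 called 0, and 6 of 10 adipocyte, 0 of 4 macrophage and 3 of 6 fibroblast markers tested had an unadjusted p under 0.05, as had 12.8% of all genes. Their part in the Cpm value was not tested. With palmitate, in libraries outside that comparison, Cpm was lower in those labelled as given A66 as well. It is not recorded whether these libraries were also looked at when Cpm was chosen. Its log2 fold change against palmitate alone was -0.53 (standard error 0.13), or 0.693 of that level (adjusted p = 0.0243, edgeR's quasi-likelihood test, Benjamini-Hochberg adjusted over 14225 genes). Both libraries with palmitate plus A66 lay below both with palmitate. This call rested on replicate 1 of palmitate plus A66, without which the log2 fold change was -0.33 (adjusted p = 0.261, edgeR). It was also lost with the Wald test of DESeq2 at the same fold change (adjusted p = 0.0710, Benjamini-Hochberg). The 2 values, -0.98 and -0.53, are given side by side, and their difference was not tested because the first of them chose the gene.

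Among the 5 of the 7 genes that passed the filter on low counts in this comparison, Cpm was the 1 that passed the threshold, where 2.64% of all genes tested did, and 1.67% of all genes tested were lower. The groups did not overlap for 4 of the 5, Cpm, Cpd, Cpz and Cpq, against 44.7% of all genes tested. Of the 10 adipocyte markers, 2 were lower with palmitate plus A66, Retn (log2 fold change -0.32) and Slc2a4 (-0.23), with adjusted p of 3.68e-04 and 0.0120 in edgeR's test, and 0 were higher. The summed adipocyte list overlapped, with 8227 and 8988 CPM for palmitate and 7928 and 8697 CPM for palmitate plus A66. The summed macrophage list was 15.3 and 16.6 CPM with palmitate and 17.9 and 18.9 CPM with palmitate plus A66, so that it was higher where Cpm was lower. None of the 4 macrophage markers tested passed in edgeR's test, 3 had an unadjusted p under 0.05, and DESeq2 called 0. Cd14 (8.19 and 10.1 CPM) and Cd68 (4.03 and 5.57 CPM) had higher means with both agents, and Lyz2 (3.52 and 2.49 CPM) a lower one. The part of these markers in the Cpm result was not tested.

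Palmitate was also compared with its absence, in cells without and with A66. Cpm is described here without a test, since its untreated and A66 libraries chose it. Its log2 fold change was -0.85 (standard error 0.11) for palmitate against untreated cells and -0.40 (standard error 0.13) for palmitate plus A66 against A66. The second of these was -0.20 without replicate 1 of palmitate plus A66 and -0.64 without replicate 2. In that comparison 7 of the 10 adipocyte markers were lower in edgeR's test, where 1.27% of all genes were, and 4 in DESeq2's. Among the 7 was Adipoq (log2 fold change -0.24, adjusted p = 0.00327, edgeR). Of 4 macrophage markers tested, 1, Cd68, was higher (log2 fold change 0.91, adjusted p = 0.00140, edgeR), where 1.46% of all genes were. Lyz2 of the same list had the other sign (log2 fold change -0.32). The Adipoq call was lost without replicate 1 of A66 or of palmitate plus A66 (adjusted p = 0.159 and 0.0900, edgeR), and the Cd68 call without replicate 1 of A66 (adjusted p = 0.0678, edgeR). In palmitate against untreated cells 0 adipocyte and 0 macrophage markers passed in edgeR's test, with 3 and 1 under an unadjusted p of 0.05, and DESeq2 called 0. The fibroblast collagen Col1a1 was higher there (log2 fold change 0.25, adjusted p = 0.00331, edgeR) and lower for palmitate plus A66 against palmitate (-0.33, adjusted p = 7.82e-04, edgeR). It was the 1 called of 6 fibroblast markers tested in each, where 0.631% of all genes were higher and 1.67% lower, respectively. Of the other sign were Cd34 (-0.19) and Thy1 (-0.014) in the first comparison, and Ly6a (0.37) and Cd34 (0.22) in the second. The part of these markers in the Cpm values was not tested.

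Cpe, the granule enzyme and the most abundant member per length, differed little between groups. It stood at 103 and 102 CPM in the untreated libraries, at 117 and 112 CPM after A66, at 117 and 101 CPM after palmitate, and at 117 and 108 CPM after both. The A66 libraries exceeded the untreated ones (the groups did not overlap for 42.7% of all genes in that comparison), and the palmitate libraries lay as far apart as 117 and 101 CPM. The log2 fold change was 0.16 (standard error 0.043) for A66 against untreated, given without a test. It was 0.042 (standard error 0.056, adjusted p = 0.804) for palmitate plus A66 against palmitate and 0.088 (standard error 0.055, adjusted p = 0.563) for palmitate against untreated in edgeR's test. Each of the latter 2 changed sign when a single library was left out.

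Cpd, the enzyme of the trans-Golgi network, was the steadiest of the 7 genes. Its lowest library, at 258 CPM, was one with palmitate and its highest, at 281 CPM, one with palmitate plus A66. The log2 fold changes were 0.012 (standard error 0.039) for A66 against untreated, as a description, and 0.089 (standard error 0.043, adjusted p = 0.359, edgeR) for palmitate plus A66 against palmitate. They were -0.050 (standard error 0.040, adjusted p = 0.676) for palmitate against untreated and 0.030 (standard error 0.040, adjusted p = 0.813) for palmitate plus A66 against A66 in the same edgeR test. The value for A66 against untreated was below zero with scaling by library size alone.

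Cpq, the dipeptidase, was slightly higher with either agent alone and lowest with both. It stood at 36.8 and 37.1 CPM in the untreated libraries, at 38.3 and 39.3 CPM after A66, at 39.5 and 40.3 CPM after palmitate, and at 33.7 and 35.1 CPM after both. No library with both agents reached the level of any other library. Between both agents and palmitate alone, groups did not overlap for 44.7% of all genes tested, and between both agents and A66 alone for 46.6%. With exchanged labels Cpq would be highest with both agents (39.9 CPM), with means of 38.8 CPM in untreated cells, 36.95 CPM after A66 and 34.4 CPM after palmitate. The log2 fold change was -0.21 (standard error 0.059) for palmitate plus A66 against palmitate, which missed the threshold (adjusted p = 0.0575, edgeR), and passed with all 8 libraries in the fit (adjusted p = 0.0301, edgeR). This difference also passed with scaling by library size alone, without the filter and with the replicate block. The adjusted p was 0.139 with DESeq2, and in edgeR's test 0.107 without replicate 2 of palmitate and 0.443 and 0.196 without replicate 1 or 2 of palmitate plus A66. It was -0.17 (standard error 0.054, adjusted p = 0.0957) for palmitate plus A66 against A66 and 0.11 (standard error 0.054, adjusted p = 0.416) for palmitate against untreated in edgeR's test. For A66 against untreated it was 0.073 (standard error 0.057), without a test.

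**Figure D3:**
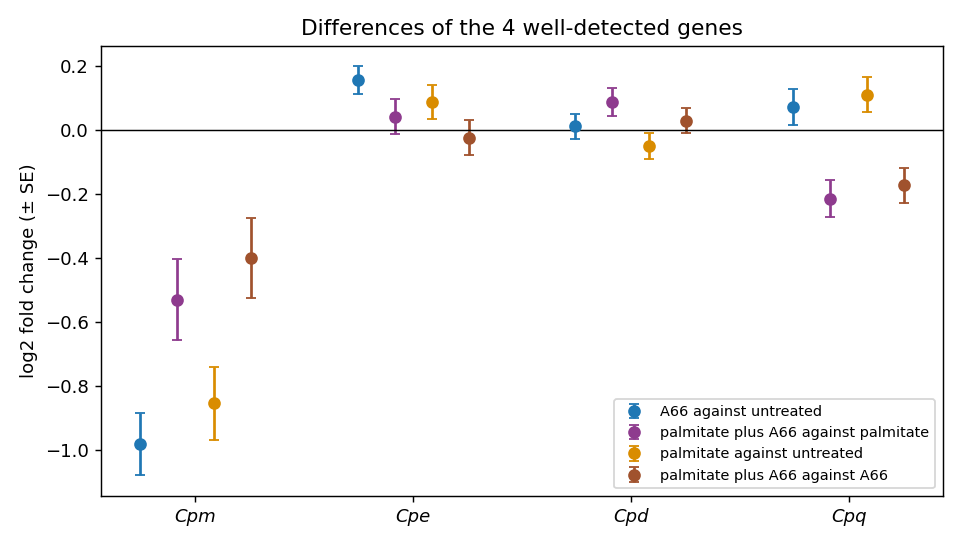
Log2 fold changes, with standard errors, of Cpm, Cpe, Cpd and Cpq in the 4 comparisons. Cpm lies between -0.98 and -0.40, whereas Cpe and Cpd lie between -0.050 and 0.16, and Cpq changes side between the comparisons.

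The 3 remaining genes were close to the floor of detection. Cpz, the secreted Wnt-binding enzyme, had 8 and 15 counts in the untreated libraries, then 12 and 21 after A66, 20 and 31 after palmitate, and 11 and 7 after both. Its log2 fold change for palmitate plus A66 against palmitate was -1.32 (standard error 0.52, adjusted p = 0.233, edgeR). Cpxm1 had between 7 and 16 counts per library, apart from 30 in replicate 1 of palmitate, against 7 in its replicate 2. Without that replicate the sign of its difference between palmitate and untreated cells turned, from 0.58 (adjusted p = 0.770) to -0.74 (adjusted p = 0.874) in edgeR's test. Cpxm2 had 1 count in 1 palmitate library and 0 in the other 7, below the floor of 3 counts in every library, and was tested in none of the comparisons.

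Apart from Cpm, 0 of the 5 genes tested passed for palmitate against untreated in edgeR's test, where 1.17% of all genes did, and 0 had an unadjusted p under 0.05. The groups did not overlap for Cpd, Cpz and Cpq, 3 of the 5, against 40.5% of all genes. For palmitate plus A66 against A66 the count was 0 of 5, where 2.73% of all genes passed, and 1, Cpq, had an unadjusted p under 0.05. The groups did not overlap for Cpz, Cpxm1 and Cpq, again 3 of the 5, against 46.6% of all genes. DESeq2 also called 0 in both comparisons. The median log2 fold change of these 5 genes was 0.11 for palmitate against untreated and -0.17 for palmitate plus A66 against A66, and that of all genes was 5.32e-04 and 4.39e-04.

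Other carboxypeptidases were looked at as 4 lists written from general knowledge. Of 11 further genes of the pancreatic and regulatory subfamilies, 1 exceeded a mean of 1 CPM. This was Aebp1, a matrix protein of fibroblasts and pre-adipocytes related to Cpxm1, at 19.5 CPM in untreated cells and between 17.1 and 22.7 CPM over all libraries. Cpa6, a matrix-bound enzyme, was the next of this list at 0.653 CPM in untreated cells. The cytosolic carboxypeptidases, which shorten the tails of tubulin, were led by Agtpbp1 at 54.3 CPM and Agbl3 at 26.7 CPM in untreated cells. Of the glutamate carboxypeptidases, Naalad2 stood at 35.3 CPM and Naaladl1 at 0.0748 CPM. None of the genes tested in these 3 lists passed the threshold in any of the 4 comparisons in edgeR's test, with 1 to 2 genes in all under an unadjusted 0.05 in each comparison but palmitate plus A66 against palmitate, which had 0, and DESeq2 called 0. The serine carboxypeptidases, lysosomal enzymes that do the same cut without zinc, held the clearest palmitate difference. Scpep1 stood at 206 and 209 CPM in the untreated libraries, at 225 and 228 CPM after A66, at 256 and 258 CPM after palmitate, and at 280.4 and 277 CPM after both. It rose by 0.31 on the log2 scale (standard error 0.039, adjusted p = 5.1e-05, edgeR) for palmitate against untreated and by 0.30 (standard error 0.039, adjusted p = 3.8e-05, edgeR) for palmitate plus A66 against A66.

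The peptides on which Cpm and Cpe act were followed through 3 more lists, of membrane peptidases, of kinin, anaphylatoxin and epidermal growth factor genes, and of prohormone processing. With the 4 lists above, these held 60 genes. Of the 30 tested for palmitate plus A66 against palmitate, 0 passed in edgeR's test, 7 had an unadjusted p under 0.05, and DESeq2 called 1, while 2.64% of all genes passed and 14.3% had an unadjusted p under 0.05. For palmitate against untreated 1 of 31 rose and 1 fell, for palmitate plus A66 against A66 2 of 31 rose and 1 fell, and for A66 against untreated 1 of 27 fell. Of all genes, 1.17%, 2.73% and 1.84% passed in these 3 comparisons. Complement C3, the source of the anaphylatoxin C3a from which Cpm removes an arginine, was the gene that fell in each of these 3 comparisons. C3 stood at 1667 and 1619 CPM in the untreated libraries, at 1442 and 1361 CPM after A66, at 1348 and 1398 CPM after palmitate, and at 1210.4 and 1264 CPM after both. Its log2 fold change was -0.23 (adjusted p = 0.00167) for A66 against untreated, -0.26 (adjusted p = 0.00186) for palmitate against untreated and -0.18 (adjusted p = 0.0213) for palmitate plus A66 against A66 in edgeR's test. For palmitate plus A66 against palmitate it was -0.15 and did not pass (adjusted p = 0.156, edgeR). Without replicate 2 of A66 the first of these did not pass (adjusted p = 0.0956, edgeR), and the third did not pass without replicate 1 of A66 or of palmitate plus A66 (adjusted p = 0.427 and 0.305, edgeR). Anpep, a membrane aminopeptidase, was the second gene that rose for palmitate plus A66 against A66 (log2 fold change 0.39, adjusted p = 0.0452, edgeR), a call lost without any of 3 of the 4 libraries compared. The kinin precursors Kng1 and Kng2 and the kinin receptors Bdkrb1 and Bdkrb2 did not exceed a group mean of 0.0309 CPM. In the prohormone list, Pam, which amidates peptides, stood at 67.7 CPM and the convertase Furin at 61.9 CPM in untreated cells, and the neuroendocrine convertases Pcsk1 and Pcsk2 were at or below 0.00864 CPM in every group.

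The genes whose pattern over the 8 libraries was most like that of Cpm were found by the Pearson correlation of log2 CPM among 14586 other genes. These were Dus1l (0.99), Mid1ip1 (0.97), Ifngr1 (0.97), Hccs (0.97) and C3 (0.97), and the 2 most opposite were Plscr1 (-0.98) and Vcam1 (-0.98). The 8 libraries share their 4 groups, so these correlations describe group patterns over few points. The corresponding Spearman values lay between 0.857 and 0.952 for the 5, and 358 genes reached the lowest of them. All 5 moved over a smaller range than Cpm. Dus1l stood at 33.3 CPM in untreated cells, at 30.4 after A66, at 30.9 after palmitate and at 29.7 after both, and Vcam1 at 110.1, 126, 122 and 130.4 CPM. The correlation of the other members with Cpm lay between -0.67 for Cpe and 0.28 for Cpq.

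**Figure D4:**
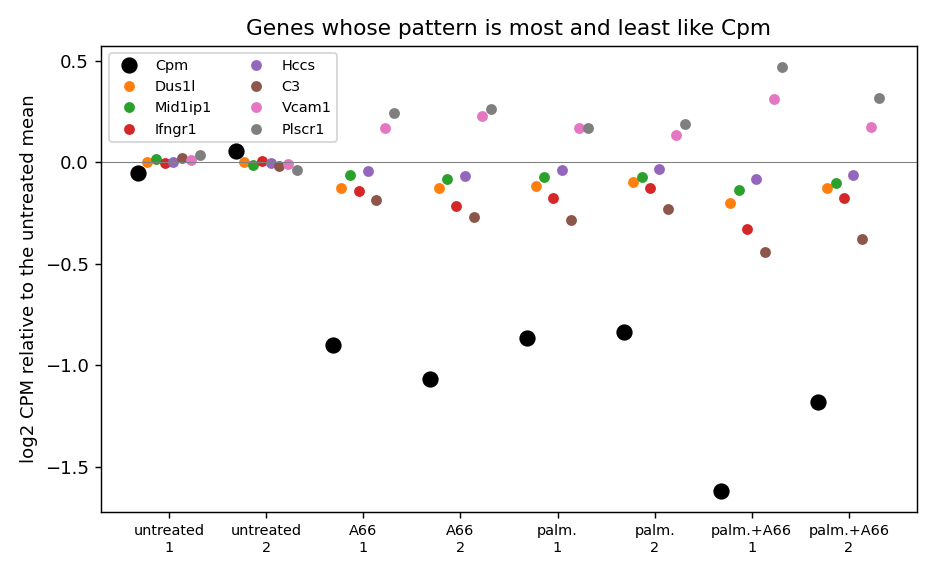
Log2 CPM minus its mean in untreated cells, for Cpm (large black points), the 5 genes most like it and the 2 most opposite, in each of the 8 libraries. By the labels, all 8 genes separate the untreated from the treated libraries, and Cpm covers the widest range. The other genes were chosen by their correlation with Cpm over these same libraries, so the shared separation was built into the choice.

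The neighbours of Cpm moved little in these cells. Of the 5 protein-coding genes that start within 250 kb, Mdm2 and Slc35e3 were among the most abundant mRNAs of these cells, at ranks 18 and 32 of 42548 genes by counts per kilobase, where Cpm was at rank 10026. Mdm2, the p53 ubiquitin ligase, runs towards Cpm on the opposite strand, and the ends of the genes are 1522 bases apart. Mdm2 stood at 4900 CPM in untreated cells, at 4847 after A66, at 4747 after palmitate and at 5214 after both, so that its highest group was the lowest for Cpm. By the labels, Slc35e3, a putative transporter, was highest in untreated cells like Cpm, at 2250 CPM. It stood at 2127 after A66, at 2076 after palmitate and at 2104 after both. With exchanged labels both genes would be highest after A66. None of the 5 neighbours passed the threshold in any of the 4 comparisons in edgeR's test, and their log2 fold changes lay between -0.12 and 0.14. Unadjusted p under 0.05 was reached by Mdm2 or Slc35e3 in each comparison.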

How the data were processed

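RNA of 8 libraries of 3T3-L1 adipocytes, 2 in each of 4 groups, was poly(A)-selected and sequenced by the authors from a stranded kit. The submitters' processing notes name TopHat2 2.0.11, HTSeq and DESeq2, and the deposited table holds whole read counts per gene (GRCm38) that the authors did not normalise. The annotation, the HTSeq version and the strand setting are not given in the sources used here. Columns of the authors' own DESeq2 comparison (mean count, log2 fold change, standard error, statistic, p and adjusted p) are in the table and were not used.

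Counts were scaled by TMM and tested with edgeR 4.0.16 (R 4.3.3, limma 3.58.1), using the quasi-likelihood test after filterByExpr with a minimum count of 10, Benjamini-Hochberg adjustment over all genes tested and a threshold of 0.05. Each A66 comparison was fitted on its own 4 libraries, and each palmitate comparison on all 8. CPM is the library-scaled count after TMM, RPKM divides it by the union of GENCODE M21 exons, and correlations used log2 CPM with a prior count of 2. Library totals lay between 42247091 and 57529803 counts. Of 43629 genes, 42548 were found in this annotation. Scripts were tested on simulated counts.

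Within groups, gene-wise chi-square per gene with at least 40 counts averaged 6.42 to 9.49, so that no library was a copy of another. Interaction terms between the 2 agents were tested in one fit of all libraries, added after the values were seen. The members and lists were chosen with earlier results of these data known. Genes named were the 7 members, the 5 with the highest and 2 with the lowest correlation with Cpm, neighbours that start within 250 kb, and from each list those called in a palmitate comparison or, where none or over 4 were, the 2 with the highest mean. The kinin genes, Pcsk1, Pcsk2 and the cell type markers other than those named by this rule were chosen after their values were seen. Alternatives were scaling by library size, DESeq2 1.42.0, no filter, other sets of libraries in the fit, a replicate block, another gene length, and leaving out each library.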

Additional observations from a re-analysis of the deposited data

Results flagged for a closer look

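The response of Cpq to A66 had opposite signs without and with palmitate, with log2 fold changes of 0.073 and -0.21. The difference between them was -0.28 (standard error 0.076), with an unadjusted p of 0.00120 and an adjusted p of 0.310 in edgeR's interaction test over 14587 genes, of which 1 passed. The same term compares the response of Cpq to palmitate, which was 0.11 without A66 and -0.17 with it, and in each of these 4 comparisons both libraries of one group lay on one side of the other group, as they did for 40.5% to 46.6% of all genes.

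Cpz, at 7 to 31 counts per library, had a log2 fold change of 0.95 for palmitate against untreated cells and of -0.87 for palmitate plus A66 against A66. The difference was -1.82 (standard error 0.77), with an unadjusted p of 0.0281 and an adjusted p of 0.582 in edgeR's interaction test. Neither gene passed after adjustment.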

How the results depend on the processing

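Of 448 values recomputed under other settings, 394 stayed close to the main value by the measure for their kind, which was direction and side of the threshold for a test, the replicate SD for an untested value, the size for a count and the sign for a correlation. Genes called for palmitate plus A66 against palmitate were 376, against 633 without the filter, 902 with a replicate block and 311 to 799 when single libraries were left out. They were 171 for palmitate against untreated (396 without the filter, 71 to 245 with a library left out). They were 398 for palmitate plus A66 against A66 (664 without the filter, 689 with the 4 libraries alone, 107 to 346 with a library left out). They were 261 for A66 against untreated (459 without the filter, 98 to 635 with a library left out). Scaling by library size changed the split of higher and lower calls, from 138 and 238 to 97 and 321 for palmitate plus A66 against palmitate, from 92 and 79 to 83 and 105 for palmitate against untreated, from 213 and 185 to 180 and 266 for palmitate plus A66 against A66, and from 152 and 109 to 126 and 154 for A66 against untreated. Of the 7 genes, 1 was called for palmitate plus A66 against palmitate. This became 0 with DESeq2, 2 with library size only, no filter, all 8 libraries or the replicate block, and 0 to 2 with a library left out. The second gene was Cpq. The log2 fold change of Cpm there was -0.53 with DESeq2 (adjusted p = 0.0710) and -0.77 to -0.33 with a library left out, and -0.54 with the replicate block (adjusted p = 1.16e-04, edgeR). With a library left out, Cpe ranged from -0.055 to 0.15 for palmitate plus A66 against palmitate, from -0.017 to 0.19 for palmitate against untreated and from -0.082 to 0.033 for palmitate plus A66 against A66, where it was also 0.0093, and Cpxm1 ranged from -0.74 to 1.24 for palmitate against untreated. Each of these 4 thus changed sign without being called. The cause of these changes was not tested. Libraries of the same number correlated by -0.15 to 0.16 across 9350 genes in their deviations from the group means. The value of 0.16 was that of palmitate with palmitate plus A66. With 2 libraries per group, these correlations do not settle whether the numbers pair the libraries. The block gave 195, 438 and 282 calls in the comparisons other than palmitate plus A66 against palmitate. Depth limits Cpz, Cpxm1 and Cpxm2, with at most 31 counts per library.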
